A study of Mus musculus with 48 samples.

Results

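The 10 genes described here encode the proteins that bring long-chain fatty acids into a liver cell and activate them: Cd36, Slc27a1, Slc27a2, Slc27a4, Fabp1, Fabp2, Acsl1, Acsl3, Acsl4 and Acsl5. The rule that picks them uses gene names alone, although the set was proposed with earlier results of these data known. They were found by their Ensembl identifiers among the 55416 genes of the count files. All 10 passed the low-count filter. Poly(A) RNA of whole livers from 48 mice, all labelled C57Bl/6J, was sequenced after 8 weeks of western diet, begun at about 8 weeks of age, in 2 studies of LXRα (Nr1h3), a nuclear receptor activated by oxysterols. In the DN study a dominant-negative form of LXRα was knocked in, and in the KO study LXRα was deleted. Each study held 8 wild-type (DN:WT, KO:WT), 8 heterozygous (DN:HET, KO:HET) and 8 homozygous mice (DN:HOM, KO:HOM) bred from heterozygous parents. The knock-in descends from 1 founder and its mice were male. The knockout mice were kept at another site, their allele was first made on a mixed background and then backcrossed to C57BL/6 (substrain not stated in the study's methods), and their experiment is described as a repeat of that with the knock-in, without a separate statement of sex in the text read here. Both alleles are present in every cell of the body, and every mouse sequenced here was fed the western diet.

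Long-chain fatty acids reach hepatocytes bound to albumin or are released from lipoproteins by lipases. CD36 is a scavenger receptor that facilitates their entry, and the fatty acid transport proteins of the SLC27 family couple entry to activation because they are themselves acyl-CoA synthetases. Inside the cell the fatty acid-binding proteins FABP1 (liver type) and FABP2 (intestinal type) keep fatty acids soluble, and the long-chain acyl-CoA synthetases (ACSL) join them to coenzyme A, the step that commits them to oxidation, esterification or membrane lipids. Many of these genes are textbook targets of PPARα, the fatty acid sensor of the liver, which binds a pair of AGGTCA-like hexamers spaced by 1 base (a direct repeat 1). LXRs bind such hexamers spaced by 4 bases (a direct repeat 4), and Cd36 is a known LXR target in mouse liver.

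The promoters of Fabp1, Fabp2 and Acsl1 are shown because these genes had the largest decreases in DN:HOM livers. RefSeq promoter windows were found for all 10 genes (13 windows, since Slc27a1 has 3 and Acsl1 has 2), and the 250 bases before each start were placed on GRCm39 by exact match. Only bases outside the annotated exons of the gene are printed, 5′ to 3′ on the strand of the gene, all of them the forward strand. Capitals mark a direct repeat 1 in Fabp1 and GC boxes (GGGCGG) in Acsl1, and no searched motif is marked in Fabp2.
Fabp1, chr6:71176613-71176808: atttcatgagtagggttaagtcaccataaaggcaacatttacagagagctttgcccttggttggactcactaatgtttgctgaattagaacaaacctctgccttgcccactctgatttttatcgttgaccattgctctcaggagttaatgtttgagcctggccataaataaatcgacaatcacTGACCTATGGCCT
Fabp2, chr3:122688471-122688720: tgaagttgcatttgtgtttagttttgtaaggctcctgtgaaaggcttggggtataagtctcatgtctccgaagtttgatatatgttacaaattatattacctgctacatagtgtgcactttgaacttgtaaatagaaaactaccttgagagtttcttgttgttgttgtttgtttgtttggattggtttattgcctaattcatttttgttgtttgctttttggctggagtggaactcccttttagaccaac
Acsl1, chr8:46923824-46924062: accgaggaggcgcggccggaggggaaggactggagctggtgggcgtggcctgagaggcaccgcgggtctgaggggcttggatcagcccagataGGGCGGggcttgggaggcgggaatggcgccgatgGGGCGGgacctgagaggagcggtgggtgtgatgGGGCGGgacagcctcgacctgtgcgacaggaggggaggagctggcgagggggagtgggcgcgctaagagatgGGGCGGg

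The search covered both strands of the 250 bases before each start for a direct repeat 1 (AGGNCANAGGNCA), a direct repeat 4 (AGGNCANNNNAGGNCA), the hexamer AGGTCA, which lies inside some direct repeats, a TATA box (TATAAA), a GC box (GGGCGG), an E box (CACGTG) and a sterol element (TCACNCCAC). The direct repeat 1 was found in Fabp1 alone among the 10 genes, on the reverse strand from 67 to 55 bases before the RefSeq start, and 0.338% of the 32851 windows of all genes held one. Fabp1 also held the TATA box, as did 12.4% of all windows. A direct repeat 4 was in no window of the 10 genes and in 0.213% of all windows. The hexamer was in Fabp1, Slc27a2 and Cd36 (14% of all windows), and GC boxes were in Acsl1, Acsl3, Acsl4, Cd36, Slc27a1, Slc27a2 and Slc27a4 (32.7% of all windows). The E box was found in Slc27a1 (6.02% of all windows) and the sterol element in the second Acsl1 window (1.05%). The windows of Fabp2 and Acsl5 held none of these letters. A match is a description of the letters and not of a bound factor.

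The labels of 2 libraries went against their data. The library labelled DN:WT animal 10 had Fabp2 at 56.9 CPM (gene counts scaled to the TMM-adjusted library total) and Fabp1 at 1105, inside the range of the DN:HOM livers. The library labelled DN:HOM animal 12 had Fabp2 at 369 and Fabp1 at 4449, near the DN:WT livers. Neither matched a liver in a source data sheet of the study for DN livers, where the other 22 were found by the values of 4 genes. The legend of the study's expression heatmap gives n = 8, so whether the study left these libraries out elsewhere is not known. The main comparisons therefore used 46 livers (7 DN:WT, 7 DN:HOM and 8 of every other group), no liver was moved, and values over all 48 are given for the 10 genes in homozygous livers. Reads on genes lay between 5332897 and 16961379 per liver, with 2 livers below 10000000 (KO:HET animal 3 and KO:HOM animal 17). Nr1h3 was at 93.6 ± 8.82 CPM (SD, n = 8) in KO:WT, 59.2 ± 5.63 (n = 8) in KO:HET and 27 ± 1.99 (n = 8) in KO:HOM, with no overlap between them. In the DN study it was at 91.8 ± 5.04 (n = 7), 92.7 ± 4.58 (n = 8) and 72.8 ± 3.56 CPM (n = 7), with a log2 fold change of -0.32 (SE 0.061, adjusted p = 1.5e-05) in DN:HOM against DN:WT. The DN:WT livers (82.1 to 96.9) and DN:HOM livers (68.5 to 77.4) did not overlap, and the doubted libraries lay on the opposite sides, at 71.3 CPM for animal 10 and 86.9 for animal 12. Hepatocyte markers, summed over 8 genes, lay between 64663 and 81099 CPM in DN:WT, 33851 and 43407 in DN:HOM, 74592 and 99939 in KO:WT and 53351 and 77758 in KO:HOM.

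Per length of transcript, Fabp1 had the highest level of the 10 genes in every group. In DN:WT it stood at 9160.4 ± 1473 (SD, n = 7) CPM per kilobase of the canonical transcript. Slc27a2 (637 ± 42.4), Fabp2 (312 ± 44.1), Acsl1 (174 ± 18.2), Acsl5 (132 ± 22.4) and Cd36 (53.8 ± 12.4) followed on the same scale. The lowest levels belonged to Acsl3 (11.4 ± 1.94), Acsl4 (11.2 ± 1.19), Slc27a4 (5.78 ± 0.388) and Slc27a1 (1.44 ± 0.277). Acsl3 and Acsl4 did not differ beyond their spread on this scale. The order depended in part on the length used, since over merged exons in DN:WT Acsl5 (96.8 ± 16.4) stood above Acsl1 (61.8 ± 6.47) and Acsl4 (10.2 ± 1.08) above Acsl3 (7.97 ± 1.36). In KO:WT the order by canonical transcript was the same except that Acsl4 (13.6 ± 3.62) stood above Acsl3 (9.46 ± 3.02), within their spread. In DN:HOM, again by canonical transcript, Acsl3 was at 4.56 ± 0.540, Slc27a4 at 4.02 ± 0.128 and Slc27a1 at 3.89 ± 0.635 per kilobase (n = 7). The mean ± SD of Fabp2 (53.5 ± 8.81), Acsl1 (46.7 ± 18.7) and Acsl5 (44.1 ± 1.96) overlapped. Neither closeness held over merged exons, where Slc27a1 (2.05 ± 0.335) stood below Acsl3 (3.19 ± 0.378) and Slc27a4 (3.71 ± 0.118), and Fabp2 (53.5 ± 8.81), Acsl5 (32.3 ± 1.44) and Acsl1 (16.6 ± 6.65) stood apart.

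Homozygous knock-in livers had lower levels of most of the fatty acid entry and activation genes. Of the 10 genes, 8 fell in DN:HOM against DN:WT, 1 rose (Slc27a1) and 1 did not pass the test (Acsl4). The background of this comparison was wide: 30% of the 15711 genes tested fell and 29.1% rose at an adjusted p under 0.05 (quasi-likelihood F test of edgeR, adjusted by the Benjamini-Hochberg method, as for every adjusted p here). The median log2 fold change of the 10 genes was -1.43, beside -0.01 for all genes tested. For 9 of the 10 genes the DN:WT and DN:HOM livers did not overlap, against 33.5% of all genes tested. Over all 48 livers the same 8 genes fell and Slc27a1 rose, where 25.0% of genes fell and 23% rose, and the median of the 10 genes was -0.99. With the 2 doubted libraries in their labelled groups, however, the groups overlapped for all 10 genes. In RNA from whole liver, fewer cells of a type and less RNA per cell cannot be told apart.

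**Figure D1:**
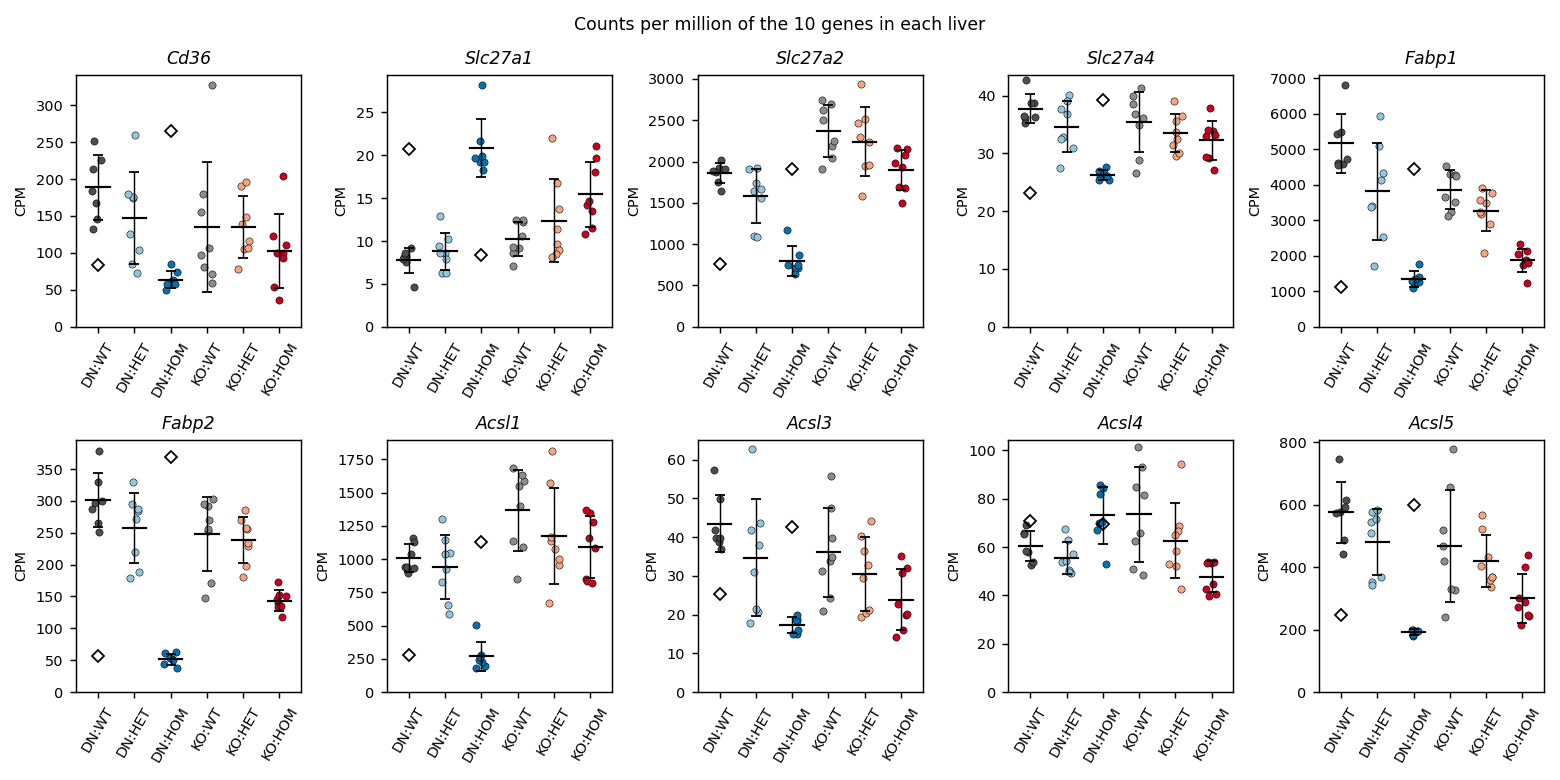
Level of each of the 10 genes in CPM (linear axis from 0) in every liver, by group. Points are livers, bars are the mean and SD over 46 livers, and open diamonds are the libraries labelled DN:WT animal 10 and DN:HOM animal 12. In Fabp2 the DN:HOM livers lie between 38.1 and 62.1 CPM and the DN:WT livers between 251 and 379, with the open diamonds on the opposite sides.

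Among the entry proteins Cd36 was at 132 CPM in the lowest, 184 in the median and 251 in the highest DN:WT liver, and at 49.7, 60.1 and 84.8 in DN:HOM. Every DN:HOM liver lay below every DN:WT liver. The log2 fold change was -1.55 (SE 0.305, adjusted p = 2.8e-05), and over all 48 livers it was -0.98 (adjusted p = 0.015). Cd36 is also made by macrophages, endothelium and adipocytes. Macrophage markers rose (9 of 9, and 7 of 9 over all 48 livers, with a median log2 fold change of 3.03 and 1.80), from a summed 180.0 to 327 CPM in DN:WT to 1169.5 to 1830.2 in DN:HOM. Kupffer cell markers (5 of 5 fell) went from a summed 131 to 256 CPM in DN:WT to 1.56 to 3.5 in DN:HOM, endothelial markers (4 of 7 fell, 1 rose, and none rose over all 48 livers) from 115 to 163 to 78.5 to 143. Of the 5 adipocyte markers Adipoq, Lep, Retn and Plin1 were at 0.148 CPM or less in every DN:WT liver, with Lep at 0, and the fifth, Cfd, went from 135 ± 51.4 CPM (SD, n = 7) in DN:WT to 0.157 ± 0.161 (n = 7) in DN:HOM. Their part in the Cd36 value was not tested.

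Slc27a2 encodes FATP2, a transport protein and very-long-chain acyl-CoA synthetase of hepatocytes, and was the most abundant SLC27 gene of the set. It had 1642, 1889 and 2021 CPM in the lowest, median and highest DN:WT liver and 637, 746 and 1171 in DN:HOM. The groups were apart, and DN:HOM animal 33 was the highest of its group at 1171 CPM, with the other 6 at or below 863. Its log2 fold change was -1.21 (SE 0.130, adjusted p = 1e-10), and -0.88 (adjusted p = 0.00014) over all 48 livers.

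Slc27a4 encodes FATP4, a transporter known from intestine and skin. It was at 35.3 to 42.7 CPM (median 36.5) in DN:WT and 25.3 to 27.6 (median 26.1) in DN:HOM. These narrow ranges did not overlap, and the decrease was the smallest of the 8, with a log2 fold change of -0.51 (SE 0.083, adjusted p = 1e-06) and -0.37 (adjusted p = 0.0026) over all 48 livers. It depended on scaling: with library size alone, which moved the median of all genes to 0.42, it was -0.08 (adjusted p = 0.31). Slc27a2 and Slc27a4 share chromosome 2 with Nr1h3, 35.4 and 61.3 Mb away from it.

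Slc27a1, which encodes the insulin-responsive FATP1 of muscle and fat, had the lowest level per length in DN:WT and went the other way. It was at 4.59, 8.11 and 9.19 CPM in the lowest, median and highest DN:WT liver and at 18.3, 19.7 and 28.2 in DN:HOM. All 7 DN:HOM livers were above all 7 DN:WT livers. The log2 fold change was 1.44 (SE 0.186, adjusted p = 9.1e-09), and 1.04 (adjusted p = 0.00026) over all 48 livers. The macrophage markers given above rose in the same comparison, as did stellate cell markers (5 of 6 rose, 4 over all 48 livers) from a summed 78.0 to 88.0 CPM to 226 to 283, and cholangiocyte markers (5 of 5 rose) from 30 to 70.5 to 718 to 1066. No defining marker of these 3 lists was at 0. Of the 4 neutrophil markers 2 were tested, and both rose, also over all 48 livers. The neutrophil sums went from 0.857 to 2.94 CPM in DN:WT to 18.7 to 61.7 in DN:HOM, with Ly6g at 0 in every DN:WT liver. The part of all these lists in the rise of Slc27a1 was not tested.

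The 2 binding proteins had the largest decreases of the set. Fabp2 was at 251, 296 and 379 CPM in the lowest, median and highest DN:WT liver and at 38.1, 52.0 and 62.1 in DN:HOM, with a wide gap between the groups. It was 5.79-fold lower, a log2 fold change of -2.53 (SE 0.144, adjusted p = 1.9e-18), and over all 48 livers -1.57 (adjusted p = 0.00014). Enterocyte markers were near 0 throughout, with Alpi and Sis at 0 in every group. Summed over 4 genes they were at 0.139 CPM or less in DN:WT, 0.521 or less in KO:WT and 0.995 to 2.35 in DN:HOM. The 1 enterocyte marker tested, Vil1, rose in DN:HOM (log2 fold change 4.87, and 3.28 over all 48 livers). The cholangiocyte markers given above rose in the same comparison, and their part in the Vil1 value was not tested.

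Fabp1, whose promoter carries the direct repeat 1 printed above, had 4540.4, 4715 and 6814 CPM in the lowest, median and highest DN:WT liver and 1096, 1290.2 and 1772 in DN:HOM. No DN:HOM liver reached the DN:WT range, and DN:WT animal 17 was the highest. It was 3.81-fold lower, a log2 fold change of -1.93 (SE 0.170, adjusted p = 5.1e-13), and -1.43 (adjusted p = 3.8e-05) over all 48 livers. Hepatocyte markers moved the same way, with 7 of 8 lower in DN:HOM and a median log2 fold change of -0.89 (6 of 8 and -0.67 over all 48 livers), and their part in these decreases was not tested.

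Among the long-chain synthetases, Acsl1, the main isoform of liver, fell most. It was at 894, 941 and 1161 CPM in the lowest, median and highest DN:WT liver and at 177, 238 and 502 in DN:HOM. Here too DN:HOM animal 33 was the highest of its group, above the next at 282. The log2 fold change was -1.89 (SE 0.199, adjusted p = 7.3e-11), and -1.28 (adjusted p = 0.0003) over all 48 livers.

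Acsl5, an isoform of mitochondria and endoplasmic reticulum, was at 441, 577 and 746 CPM in the lowest, median and highest DN:WT liver and at 178, 195 and 200.1 in DN:HOM, where the 7 livers lay close together. Its log2 fold change was -1.57 (SE 0.181, adjusted p = 6e-10), and -1.14 (adjusted p = 0.00014) over all 48 livers. Counted without strand, its DN:WT mean was 404 CPM in place of 576. An exon of Zdhhc6 overlaps it on the other strand, and the part of this overlap in the difference was not tested.

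Acsl3, the isoform of lipid droplets and endoplasmic reticulum, was at 37.0, 39.8 and 57.3 CPM in DN:WT and 14.9, 18.4 and 20 in DN:HOM (lowest, median and highest liver). The ranges were apart, with a log2 fold change of -1.31 (SE 0.227, adjusted p = 3.6e-06) and -1.01 (adjusted p = 0.00077) over all 48 livers. It shares exon sequence on the same strand with Utp14b, so reads in that overlap could not be assigned to either.

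Acsl4 prefers arachidonic acid and other polyunsaturated fatty acids, and it was the exception. It was at 52.7, 58.5 and 69.3 CPM in DN:WT and 52.9, 70.4 and 85.7 in DN:HOM (lowest, median and highest liver), with overlapping groups. The log2 fold change of 0.29 (SE 0.138, adjusted p = 0.068) did not pass the test, and neither did 0.24 (adjusted p = 0.12) over all 48 livers. It passed with upper-quartile scaling (0.37, adjusted p = 0.018), with library size alone (0.72, adjusted p = 2.2e-05), with the DN study fitted alone (0.33, adjusted p = 0.0057) and with only the compared groups in the fit (0.30, adjusted p = 0.013).

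The make-up of the ACSL family by reads per length of the canonical transcript differed between the groups of the DN study. Acsl4 took 3.07% to 3.63% of it in DN:WT and 8.71% to 16% in DN:HOM, without overlap (means 3.41% and 12.7%, 7 livers each). A share also depends on the other genes of the sum, which shrank. From DN:WT to DN:HOM Acsl1 went from 174 ± 18.2 to 46.7 ± 18.7 CPM per kilobase and Acsl5 from 132 ± 22.4 to 44.1 ± 1.96. Acsl4 itself, at 11.2 ± 1.19 and 13.6 ± 2.18, did not pass the test as given above. The libraries left out had 10.5% (labelled DN:WT animal 10) and 3.61% (labelled DN:HOM animal 12), so that the groups overlap over all 48 livers. Acsl1 took 43.7% to 57.2% in DN:WT and 31.4% to 58.0% in DN:HOM, ranges that overlap. Acsl5 took 40.1% ± 4.32 (SD, n = 7) and 41.2% ± 5.70 (n = 7), and Acsl3 3.47% ± 0.503 and 4.30% ± 0.910, both within their spread. The shares depended on the length used: over merged exons the Acsl4 means were 5.76% and 19.3% (5.28% to 6.14% and 14.9% to 23.5%, again apart) and the Acsl1 means 35.2% and 25.2%. In the KO study the Acsl4 share was 3.76% ± 0.913 (n = 8) in wild-type and 3.34% ± 0.852 (n = 8) in homozygous livers. Acsl6, an isoform of brain, was at 0.0446% or less in each of the 46 livers.

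**Figure D2:**
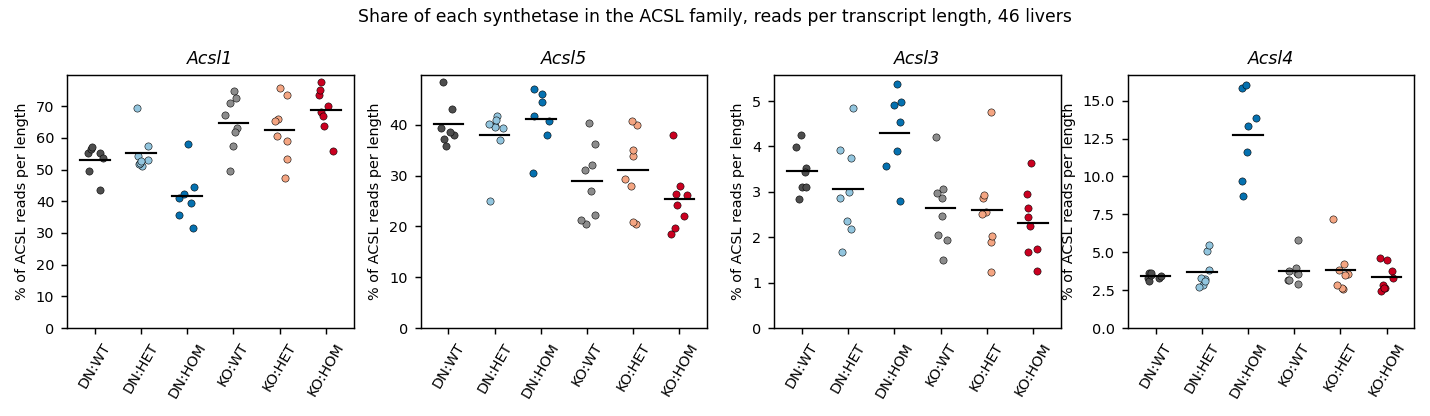
Share of Acsl1, Acsl5, Acsl3 and Acsl4 in the reads per transcript length of the ACSL genes, in percent (linear axes from 0, one scale per gene), in each of the 46 livers, with the group mean as a line. The 7 DN:HOM livers stand above all other livers for Acsl4, at 8.71% to 16%. In these livers the levels of Acsl1, Acsl3 and Acsl5 fell and that of Acsl4 did not pass the test.

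In KO:HOM against KO:WT, 6 of the 10 genes fell, 1 rose (Slc27a1) and 3 did not pass the test, beside 7.87% of all genes tested that fell and 11.5% that rose. The median log2 fold change of the 10 genes was -0.49, beside -0.02 for all genes. Hepatocyte markers moved the same way (6 of 8 fell, 3 with all 48 livers, median log2 fold change -0.39), and their part in these values was not tested. Fabp1 alone did not overlap between the groups, against 2.55% of all genes. With all 48 livers in the fit, in which the added DN livers enter the common spread, 3 of the 10 genes fell (Fabp1, Acsl4 and Acsl5) and none rose, where 4.12% of all genes fell and 8.79% rose.

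Fabp1 had 3125, 3943 and 4529 CPM in the lowest, median and highest KO:WT liver and 1238, 1851 and 2329 in KO:HOM. It was 2.07-fold lower in the knockout livers (log2 fold change -1.05, SE 0.155, adjusted p = 6.6e-06, and -1.04, adjusted p = 0.0029 with all 48 livers). Fabp2 was at 148, 262 and 303 CPM in KO:WT and 119, 143 and 173 in KO:HOM, where only the lowest 2 KO:WT livers reached the KO:HOM range. Its log2 fold change was -0.80 (SE 0.128, adjusted p = 1.9e-05), and with all 48 livers -0.79 (adjusted p = 0.081).

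Acsl4, which did not pass the test in the DN study, fell in the knockout livers. It was at 48.3, 73.7 and 101 CPM in KO:WT and 39.9, 49.1 and 53.9 in KO:HOM (lowest, median and highest liver), with a log2 fold change of -0.63 (SE 0.130, adjusted p = 0.00044), and -0.62 (adjusted p = 0.00092) with all 48 livers. Of the 8 KO:HOM livers 4 lay below every KO:WT liver, and all 8 lay below 6 of the 8 KO:WT livers. Acsl5 was at 240.1, 444 and 777 CPM in KO:WT and 214, 279.6 and 437 in KO:HOM, with a log2 fold change of -0.65 (SE 0.166, adjusted p = 0.0041). With all 48 livers it was at the threshold (-0.64, adjusted p = 0.05 after rounding, and under it before).

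Slc27a1 rose in the knockout livers as well, from 7.13, 9.95 and 12.4 CPM in the lowest, median and highest KO:WT liver to 10.8, 14.4 and 21.1 in KO:HOM. The groups overlapped, the log2 fold change was 0.58 (SE 0.173, adjusted p = 0.014), and with all 48 livers it was 0.59 (adjusted p = 0.069). Macrophage markers moved here too (8 of 9 rose, 7 over all 48 livers), from a summed 123 to 298 CPM in KO:WT to 348 to 1372 in KO:HOM. Of the stellate cell markers 3 of 6 rose (1 over all 48 livers), with sums of 70.3 to 134 CPM and 92.7 to 163, and of the cholangiocyte markers 1 of 5 (none over all 48), with sums of 24.4 to 101 and 36.6 to 183. Both neutrophil markers tested rose (none over all 48), with sums of 0 to 2.96 CPM in KO:WT and 0.945 to 7.89 in KO:HOM. The part of all these lists in the Slc27a1 value was not tested.

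Slc27a2 and Acsl3 were near the threshold. Slc27a2 ranged from 1905 to 2741 CPM in KO:WT and from 1495 to 2159 in KO:HOM, with a log2 fold change of -0.33 (SE 0.120, adjusted p = 0.046), and it lost the call in 6 of the 10 alternative analyses, all 48 livers included (adjusted p = 0.23). Acsl3 ranged from 21 to 55.8 CPM in KO:WT and from 14.2 to 35.2 in KO:HOM, with a log2 fold change of -0.59 (SE 0.211, adjusted p = 0.042), and lost it in 8 of 10, among them all 48 livers (adjusted p = 0.095) and the one without the 2 livers of low depth (-0.52, adjusted p = 0.088).

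Cd36, Slc27a4 and Acsl1 did not pass the test in the knockout. Cd36 was at 58.9, 102 and 327 CPM in the lowest, median and highest KO:WT liver and 35.6, 99.9 and 204 in KO:HOM, a spread wider than the difference (log2 fold change -0.40, SE 0.280, adjusted p = 0.35). KO:WT animal 23, at 327 CPM, stood apart from the other 7 KO:WT livers, of which the highest had 179.5. Slc27a4 had a log2 fold change of -0.14 (SE 0.078, adjusted p = 0.21), and Acsl1, at 847 to 1685 CPM in KO:WT and 820.2 to 1370.1 in KO:HOM, one of -0.33 (SE 0.181, adjusted p = 0.21). The adjusted p over all 48 livers was 0.49 for Cd36, 0.41 for Slc27a4 and 0.48 for Acsl1.

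No gene of the 10 passed the test in heterozygous livers of either study, by edgeR or by DESeq2. Over all genes tested, 2.3% passed in DN:HET against DN:WT and 0.0191% in KO:HET against KO:WT. Before adjustment, the smallest edgeR p of the 10 was 0.0076 in DN:HET (Fabp1) and 0.071 in KO:HET (Acsl4). The DN:HET livers spread widely. Fabp1 ran from 1721 to 5928 CPM (median 3758), and 6 of the 8 DN:HET livers lay below the lowest DN:WT liver at 4540.4 (log2 fold change -0.44, SE 0.158, adjusted p = 0.14). Animals 4 and 22 were the lowest pair of DN:HET livers for 5 of the 10 genes (Slc27a2, Slc27a4, Fabp1, Fabp2 and Acsl1). Their macrophage markers summed to 1283 and 1295 CPM, inside the DN:HOM range, and their hepatocyte markers to 49164 and 46734, below the DN:WT range. Their Kupffer cell markers summed to 553 and 599 CPM, above the DN:WT range of 131 to 256 and unlike DN:HOM. In KO:HET no gene of the 10 stood out, with log2 fold changes from -0.25 (Acsl3, SE 0.210, adjusted p = 0.87) to 0.26 (Slc27a1, at 8.12 to 22 CPM, SE 0.175, adjusted p = 0.83).

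**Figure D3:**
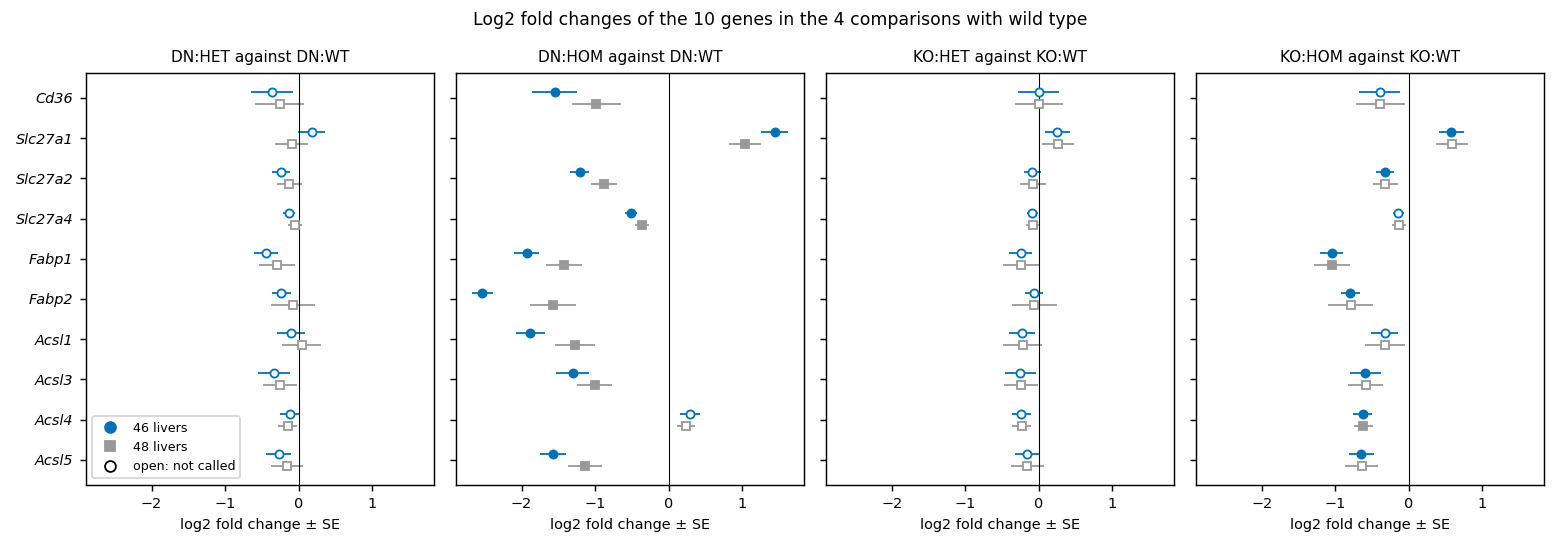
Log2 fold change with its standard error of the 10 genes in heterozygous and homozygous against wild-type livers of each study, from edgeR over 46 livers (circles) and all 48 (squares). Filled symbols have an adjusted p under 0.05. In DN:HOM the changes run from -2.53 (Fabp2) to 1.44 (Slc27a1) over 46 livers.

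The homozygous effects were compared between the studies by the difference of differences. Of the 10 genes, 7 had a more negative effect in the DN study, 2 had a more positive one (Slc27a1 and Acsl4) and Acsl3 did not pass (difference -0.72, SE 0.307, adjusted p = 0.066, but 0.047 without the livers under 10000000 reads and 0.024 with only the groups compared), where 18.3% and 16.5% of all genes tested passed in these directions. The difference was -1.74 (SE 0.188, adjusted p = 1.2e-09) for Fabp2, -1.56 (SE 0.266, adjusted p = 1.1e-05) for Acsl1 and 0.91 (SE 0.189, adjusted p = 0.00018) for Acsl4. Over all 48 livers Acsl4 alone of the 10 passed (0.86, SE 0.182, adjusted p = 0.0042), where 6.42% of all genes passed as lower and 4.05% as higher, so the other 8 differences rest on leaving out the 2 libraries that went against their labels. With library size alone the differences of Cd36 (-0.83, adjusted p = 0.082) and Slc27a4 (-0.06, adjusted p = 0.66) did not pass either. The studies also differ in site and breeding history, which cannot be told apart from the kind of allele.

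Other genes of the same families and of the steps around activation were examined by lists chosen for their role, and the counts below stand against the shares of all genes given above (30% lower and 29.1% higher in DN:HOM, 7.87% and 11.5% in KO:HOM). With all 48 livers no gene of these lists lost its call in DN:HOM, though the differences were smaller, for example -1.10 for Slc27a5, 1.01 for Fabp5, -1.07 for Ppara, 1.23 for Lpl and 1.72 for Cav2. In KO:HOM Acbd4, Acot1, Cav2 and Lipg lost theirs (adjusted p = 0.12, 0.095, 0.35 and 0.072). Of the 11 other SLC27, FABP and long-chain synthetase genes, 5 were tested. Slc27a5, the bile acid-CoA ligase and fatty acid transporter FATP5, fell from 711 ± 21.7 CPM (SD, n = 7) in DN:WT to 239.8 ± 49.4 (n = 7) in DN:HOM (log2 fold change -1.56, adjusted p = 5.8e-16). It was at 859 ± 40.3 (n = 8) and 829.7 ± 133 (n = 8) in KO:WT and KO:HOM and did not pass there. Fabp5, the epidermal binding protein that macrophages also express, rose in DN:HOM from 16 ± 7.16 to 50.7 ± 8.79 CPM (log2 fold change 1.67, adjusted p = 0.00013). Fabp4, the adipocyte and macrophage form, fell in KO:HOM (-0.67, adjusted p = 0.027), as did Fabp7, the brain form (-1.14, adjusted p = 0.014).

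Of the 10 short- and medium-chain synthetases 9 were tested, and in DN:HOM 7 fell and 1 rose (median log2 fold change -0.71). Acss2, which makes cytosolic acetyl-CoA from acetate, fell from 168 ± 48.7 to 35.2 ± 6.00 CPM in DN:HOM (-2.24, adjusted p = 3.8e-11) and from 176 ± 88.8 to 96.5 ± 20.1 in KO:HOM (-0.87, adjusted p = 0.0019). Acss1, its mitochondrial counterpart, rose in both (2.55, adjusted p = 9.8e-09 and 1.76, adjusted p = 0.00013) from a low level of 0.439 ± 0.170 CPM in DN:WT. In KO:HOM these were the only 2 of the 9 to pass.

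Of the 13 acyl-CoA binding proteins and thioesterases, all tested, 11 fell in DN:HOM and 4 in KO:HOM, and none rose (medians -0.69 and -0.22). In KO:HOM 2 fell over all 48 livers. Dbi, the acyl-CoA binding protein that carries the product of the synthetases, fell in both, from 918 ± 193 to 417 ± 50.1 CPM (-1.12, adjusted p = 6.8e-07) and from 668 ± 194 to 334 ± 101 (-1.01, adjusted p = 2.9e-05). Acot1, a cytosolic thioesterase with a near-identical copy in Acot2 that could share its reads, fell in both (log2 fold change -2.49, adjusted p = 8.4e-08 in DN:HOM and -1.001, adjusted p = 0.015 in KO:HOM).

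Among the 8 membrane proteins and lipases linked to entry, 3 fell and 2 rose in DN:HOM (median log2 fold change -0.46), shares near those of all genes. Got2, the mitochondrial aspartate aminotransferase also described as a plasma membrane fatty acid-binding protein, fell from 593 ± 29 to 302 ± 42.0 CPM (-0.96, adjusted p = 4.6e-13). Lpl, the lipoprotein lipase, rose from 58.8 ± 17.8 to 212 ± 31 CPM (1.87, adjusted p = 5.2e-05), and Cav2, a caveolin, from 3.22 ± 0.487 to 25.7 ± 3.51 (3.01, adjusted p = 2e-18). Lipc, the hepatic lipase (-0.55, adjusted p = 0.00016), and Lipg, the endothelial lipase (-1.76, adjusted p = 4.5e-05), fell. In KO:HOM Cav1 and Cav2 rose (1.37 and 0.58, adjusted p = 0.0018 and 0.0084) and Lipg fell (-0.92, adjusted p = 0.035), of which Cav1 alone passed with all 48 livers (1.38, adjusted p = 0.0026).

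Of the 8 regulators known to act on these genes, 3 fell and none rose in DN:HOM, and the share that fell is near the 30% of all genes. Ppara fell from 117 ± 28.8 CPM (SD, n = 7) to 42.2 ± 8.22 (n = 7), without overlap (log2 fold change -1.47, adjusted p = 5.7e-10), while in the knockout it was at 164 ± 41.7 and 142 ± 17.4 CPM (n = 8 each) and did not pass (-0.22, adjusted p = 0.36). Nr1i3, the constitutive androstane receptor, fell in DN:HOM (-1.03, adjusted p = 2.4e-05), and the third was Nr1h3 itself. Pparg was at 26.3 ± 5.09 and 25.9 ± 2.34 CPM in DN:WT and DN:HOM (-0.01, adjusted p = 0.96). In KO:HOM Hnf4a (-0.35, adjusted p = 0.014) and Nr1h3 (-1.80, adjusted p = 3.3e-27) fell.

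**Figure D4:**
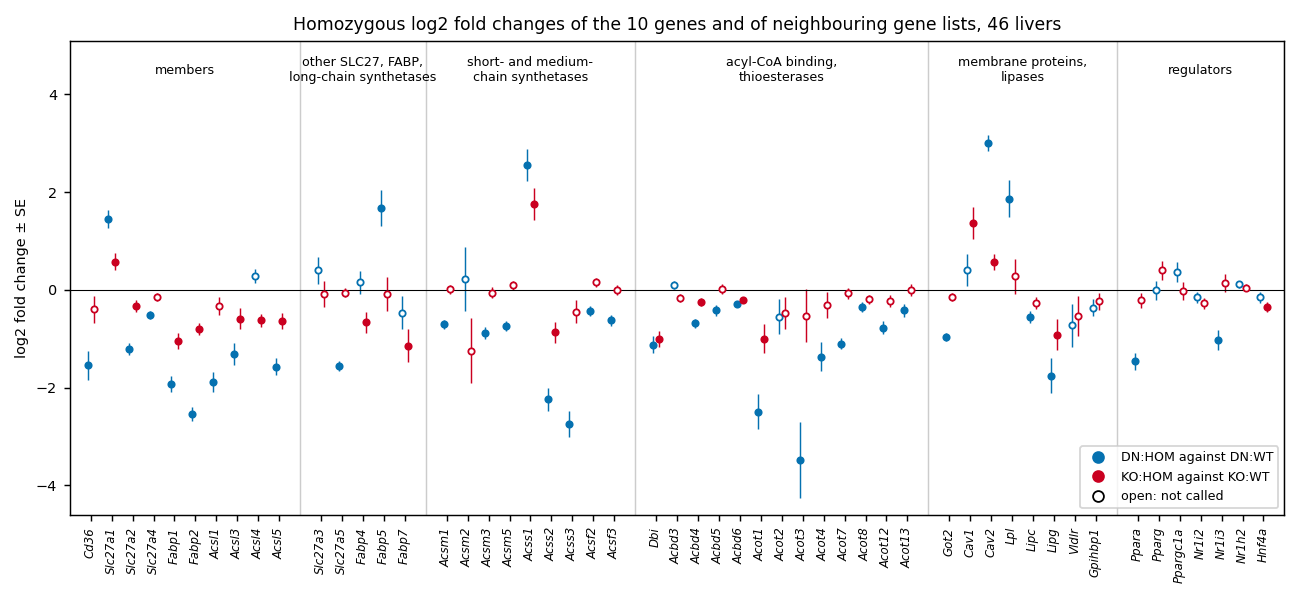
Log2 fold change with its standard error in DN:HOM against DN:WT (blue) and KO:HOM against KO:WT (red) over 46 livers, for the 10 genes and every tested gene of the 5 other lists apart from Nr1h3. Filled symbols have an adjusted p under 0.05. In the list of acyl-CoA binding proteins and thioesterases 11 of 13 genes fell in DN:HOM.

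For each of the 8 genes whose group means differed by more than 1 on the log2 CPM scale, the 3 genes with the most similar pattern were found by the root mean square difference of the 6 centred group means, among genes with a mean log2 CPM above 1. The span was largest for Fabp2 (2.54) and Acsl1 (2.38), and Slc27a4 (0.51) and Acsl4 (0.62) fell short of it. The closest to Fabp1 was 1810008I18Rik (0.054) and the closest to Fabp2 were Paox and Rgn (0.151 each). Acsl1 was most like AW495222 (0.071) and Dmgdh (0.095), Acsl5 like Anks4b (0.051) and H2-Q10 (0.076), and Slc27a2 like Lrit1 (0.051) and Abhd6 (0.061). Cd36 was most like Hnf1aos1 (0.068) and Cyb5b (0.100), Acsl3 like Gm15408 (0.072) and Pgrmc2 (0.073), and Slc27a1 like Ccl9 (0.067) and Pde1a (0.087). Pgrmc2 was also among the 3 nearest to Cd36 (0.105). These are distances over 6 group means, which describe the pattern and carry no test.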

How the data were processed

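RNA of 48 mouse livers was measured. The authors aligned stranded mRNA reads with STAR 2.5.0a to GRCm39 and deposited read counts per gene, not normalized, as unstranded and as strand-specific columns. Counts of the gene strand were used, and its total exceeded that of the other strand 6.97 to 8.62 times. The 4 summary lines that name no gene were left out. Positions come from GENCODE on GRCm39, promoters from RefSeq (GRCm38.p6 table).

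The members and lists were chosen with earlier results of these data known. Groups come from the labels. Genes were filtered with filterByExpr, scaled by TMM and tested with edgeR 4.0.16 (quasi-likelihood F test, 6 group means) in R 4.3.3, with Benjamini-Hochberg adjustment over 15711 genes and a threshold of 0.05. SE is the log2 fold change divided by the square root of F. In data simulated for DN:HOM against DN:WT, only 98 genes were given a log2 change of 1 in either direction and 102 one of 2. Of the 98 genes 88.8% were called, and of 15028 unchanged genes 6 were called. In the real comparison 30.0% of genes fell and 29.1% rose, so these rates cannot be carried over to it. Levels are CPM, counts scaled to the TMM library size over 48 livers, and log2 CPM used a prior count of 2. Named genes were Nr1h3, the 10 members, genes of the fixed lists and markers, and the 3 genes nearest each member. Replicates are separate mice. Alternatives were all 48 livers, no livers under 10000000 reads, DESeq2 1.42.0, upper-quartile scaling, library size alone, no filter, a minimum mean CPM of 1, counts without strand, each study alone and only the groups compared. Canonical transcript length, and merged exons for the ACSL shares, were added after the data were seen. Figures used matplotlib 3.10.9, and tables Python 3.11.15, numpy 2.4.6 and pandas 2.3.3.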

Additional observations from a re-analysis of the deposited data

Results flagged for a closer look

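Single livers stood far from the rest of their group by Dixon's test in 20 of 80 sets of liver values (10 genes in 6 groups, with DN:WT and DN:HOM also examined at 8 livers). Chance alone gives about 1 in 20 for independent sets, but these sets share livers, so no excess is read from the count. Most of the 20 were the 2 libraries that went against their labels, which repeats the observation for which they were left out. The library labelled DN:WT animal 10 was apart from the 7 other DN:WT livers for Slc27a1 (20.7 CPM), Slc27a2 (754), Slc27a4 (23.1), Fabp1 (1105), Fabp2 (56.9) and Acsl1 (278). The library labelled DN:HOM animal 12 was apart from the 7 other DN:HOM livers for Cd36 (265 CPM), Slc27a2 (1912), Slc27a4 (39.2), Fabp1 (4449), Fabp2 (369), Acsl1 (1128), Acsl3 (42.7) and Acsl5 (599).

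Among the 46 livers, DN:HOM animal 33 was high for Slc27a2 (1171 CPM) and Acsl1 (502), DN:HOM animal 9 for Slc27a1 (28.2), DN:WT animal 17 for Fabp1 (6814) and KO:WT animal 23 for Cd36 (327). DN:WT animal 13 was low for Slc27a1 (4.59).

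The homozygous effect differed between the studies for 9 genes, tested as a difference of log2 fold changes over 46 livers with edgeR. The difference, DN minus KO, was -1.15 for Cd36, 0.86 for Slc27a1, -0.88 for Slc27a2, -0.37 for Slc27a4, -0.88 for Fabp1, -1.74 for Fabp2, -1.56 for Acsl1, 0.91 for Acsl4 and -0.93 for Acsl5.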

How the results depend on the processing

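Each log2 fold change of the 10 genes was recomputed in 10 alternatives, and each difference between the studies in 9, since it needs both studies in the fit. In DN:HOM, 8 of the 10 genes kept their call in all 10. Slc27a4 lost it with library size alone, and Acsl4 gained one in 4, so that 2 genes were called higher with upper-quartile scaling, library size alone, the study alone or only the groups compared. With all 48 livers, KO:HOM had 3 genes called lower and 0 higher, and the difference between studies had 0 lower and 1 higher. Directions turned only for values near 0 that passed no test: with all 48 livers Slc27a1 was -0.10 and Acsl1 0.04 in DN:HET, and Cd36 in KO:HET, -0.003 in the main analysis, was 0.004 with all 48, 0.038 without the livers under 10000000 reads, 0.001 with DESeq2, 0.015 with upper-quartile scaling, 0.018 with library size alone, 0.009 without a filter, 0.007 with a mean CPM of at least 1 and 0.005 with only the groups compared. Counts of all genes called moved in DN:HET from 361 to 39 with all 48 livers, 590 with DESeq2, 239 with the study alone and 5 with only the groups compared. With all 48 livers they were 2016 in KO:HOM (main 3048) and 1636 for the difference (main 5456). In KO:HET the main count of 3 became 5 with DESeq2, 8 without a filter and 1 with only the groups compared. The causes were not tested. No paired analysis was possible because replicate numbers were given in accession order. At the lowest depth (5332897 reads, KO:HET animal 3) Slc27a1 was at 16.7 CPM.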
